A study of Homo sapiens with 16 samples.

Results

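The mitochondrial genome transcripts are the RNAs made from the small circular DNA inside mitochondria. They were taken as every gene of the deposited expression table that the GENCODE 29 annotation (GRCh38) places on the mitochondrial chromosome, M. The rule found 31 genes of the 28951 in the table: 2 ribosomal RNAs, 13 messenger RNAs and 16 transfer RNAs. The annotation lists 37 such genes. The other 6 are the transfer RNA genes MT-TG, MT-TH, MT-TK, MT-TL2, MT-TN and MT-TR, which were not analysed here. All 31 passed the filter on low values.

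RNA was sequenced from 4 established non-small cell lung cancer cell lines, H460, H1703, HCC827 and H441, each kept in RPMI with serum. For 48 hours each line received either vehicle (DMSO) or a combination of MYCi975 at 5 µM, which inhibits the transcription factor MYC, with TMP195 at 25 µM, which inhibits class IIa histone deacetylases. Each of the 8 groups had 2 libraries, and the design text names H460 with H1703 as the responsive lines, the other 2 as non-responsive. No allele or further agent is labelled. Whether a group's 2 libraries stem from separate cultures is not labelled, so p-values here measure only the spread between libraries, which may be technical.

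The mitochondrial genome is transcribed from both of its strands into long precursors that carry many genes each. Most of the transfer RNAs sit between the other genes and are cut out, which frees the rRNAs and mRNAs. The heavy strand serves as template for both rRNAs and for all mRNAs but one, MT-ND6, which comes with a handful of transfer RNAs from the light strand. The mRNAs encode core subunits of respiratory complexes I (ND1 to ND6 and ND4L), III (CYB) and IV (CO1 to CO3) and of the ATP synthase (ATP6 and ATP8). Of the genes measured, 23 were transcribed from the heavy strand and 8 from the light strand. Genes on one precursor can still reach different levels, where their RNAs are cut apart and then stabilised and degraded separately. Overlapping genes were counted separately, and whether they lay on the same RNA was not tested.

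The 2 mRNA gene pairs with the longest overlaps are shown because the members of each had like changes in the results below. MT-ATP8 (chrM:8366-8572) and MT-ATP6 (chrM:8527-9207) share 46 bases. MT-ND4L (chrM:10470-10766) and MT-ND4 (chrM:10760-12137) share 7 bases. Sequences are GENCODE 29 transcripts, plus strand of GRCh38, 5′ to 3′, with the shared bases in capitals. The last 90 bases of MT-ND4L and the first 90 bases of MT-ATP6 and MT-ND4 are given.
MT-ATP8: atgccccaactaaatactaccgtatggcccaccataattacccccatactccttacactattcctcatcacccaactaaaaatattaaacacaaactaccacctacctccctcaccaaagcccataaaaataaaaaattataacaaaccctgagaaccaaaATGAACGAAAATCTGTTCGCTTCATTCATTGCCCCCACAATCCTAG
MT-ATP6 start: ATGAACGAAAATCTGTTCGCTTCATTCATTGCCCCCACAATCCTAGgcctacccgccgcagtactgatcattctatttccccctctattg
MT-ND4L end: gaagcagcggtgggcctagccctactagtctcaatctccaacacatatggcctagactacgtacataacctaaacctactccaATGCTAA
MT-ND4 start: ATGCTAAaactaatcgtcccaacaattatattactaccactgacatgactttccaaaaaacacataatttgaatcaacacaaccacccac

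The transfer RNAs on which most tRNA reads and calls fell were also compared by sequence, because all 4 are encoded on the minus strand of the annotation and so transcribed from the light strand. Capitals mark the anticodon. They lie at chrM:7446-7514 (MT-TS1, serine), chrM:15956-16023 (MT-TP, proline), chrM:4329-4400 (MT-TQ, glutamine) and chrM:14674-14742 (MT-TE, glutamate).
MT-TS1: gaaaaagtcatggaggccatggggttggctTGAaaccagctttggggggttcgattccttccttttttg
MT-TP: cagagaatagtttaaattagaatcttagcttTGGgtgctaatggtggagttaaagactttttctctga
MT-TQ: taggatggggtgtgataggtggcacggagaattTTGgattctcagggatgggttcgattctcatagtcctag
MT-TE: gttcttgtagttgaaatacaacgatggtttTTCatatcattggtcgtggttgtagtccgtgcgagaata

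The libraries held 8493271 to 13604150 reads in the listed genes. Replicate libraries correlated at 0.974 to 0.982 over all genes. EGFR was highest in HCC827 (109044 to 143022 reads) and PDGFRA was found in H1703 (4345 to 15051 reads) with at most 1 read elsewhere. SFTPB, chosen as a feature of H441, had only 9 to 90 reads there and 3 to 37 in HCC827. The lung lineage gene NKX2-1 had 1016 to 1621 reads in H441, 410 to 939 in HCC827 and at most 6 elsewhere. The epithelial markers EPCAM, CDH1 and KRT19 were at or near 0 in H1703, where KRT8 and KRT18 had 58 to 255 reads. In H460 EPCAM and CDH1 were near 0 (0 to 9 reads), while KRT8 (16753 to 22617 reads), KRT19 (7043 to 9684) and KRT18 (3805 to 4800) were not. Of 7 markers of leukocytes, endothelium and fibroblasts, 4 were in the table, with 3 to 99 reads in sum per library. In H460 nearly all of these reads were from COL3A1, a fibroblast marker (57 to 99 reads). The summed share of the nuclear RNAs MALAT1 and NEAT1 moved with treatment, from 0.173% to 0.217% of reads in vehicle to 1.31% to 1.47% with the combination in H460, and from 0.468% to 0.518% to 1.94% to 2.36% in H1703. In HCC827 it went from 0.437% to 0.546% to 0.835% to 0.854%, and in H441 from 0.828% to 0.965% to 1.11% to 1.20%. Its part in the results below was not tested. In such bulk libraries, less RNA per cell and fewer cells of a kind cannot be told apart.

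Mitochondrial genes took 12.1% to 22.6% of all reads in a library, and MT-RNR2 alone, the 16S rRNA of the large mitochondrial ribosomal subunit, made up 85.5% to 94.3% of those. In H460 the mitochondrial share was 15.7% and 14.3% in vehicle and 18.2% and 17.4% with the combination. In H1703 it was 13.5% and 12.1% in vehicle and 17.1% and 15.4% with the combination. In HCC827 the order turned, with 21.2% and 22.6% in vehicle and 18.7% and 17.2% with the combination. In H441 it was 17.3% and 17.7% in vehicle and 17.9% and 18.1% with the combination. The groups did not overlap in any line, and the combination side was the higher one in all but HCC827. Such a gap was common with 2 libraries a group, found for 44.9% of all genes in H441, 50.1% in HCC827, 56.9% in H460 and 67.3% in H1703. In H441 the mean share was only 1.03-fold higher.

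The messenger RNAs, a smaller class, followed another course. Their share of reads in H460 rose from 1.41% and 1.16% to 2.29% and 2.03%, while in H1703 it was 1.94% and 1.74% in vehicle and 1.78% and 1.71% with the combination, which overlap. In HCC827 the vehicle libraries (1.53% and 1.68%) and combination libraries (1.57% and 1.49%) overlapped as well. H441 had 1.17% and 1.24% in vehicle and 1.02% and 1.09% with the combination, with no overlap. In H1703 the higher mitochondrial share thus lay in the 16S rRNA. Transfer RNA genes took 401 to 1145 reads a library.

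**Figure D1:**
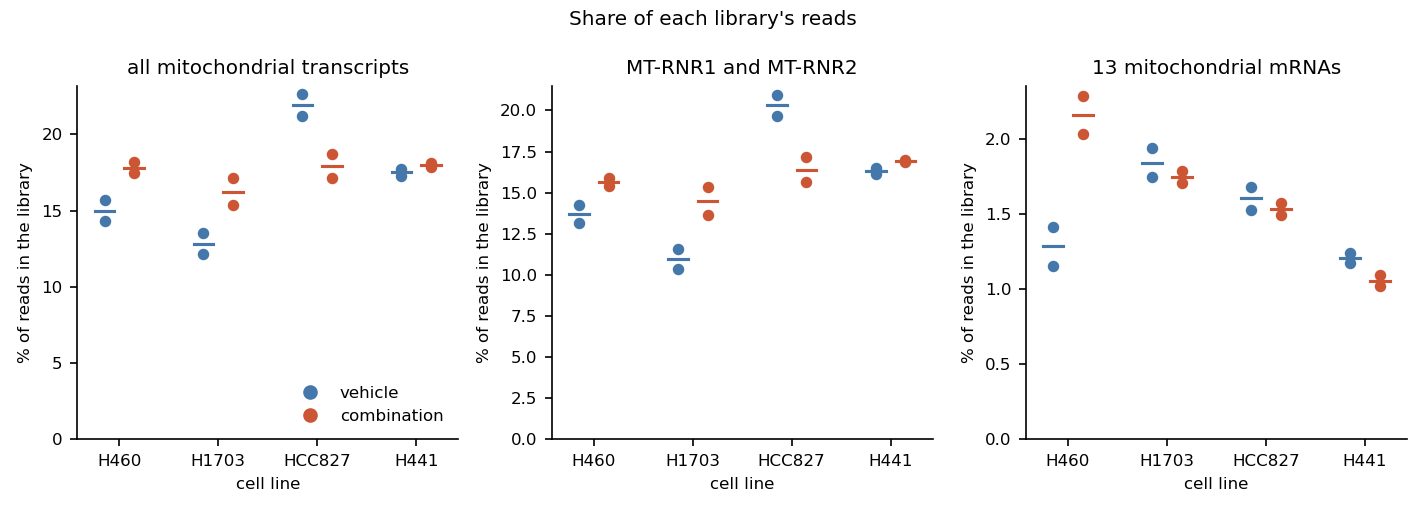
Share of each library's reads (y axis, %) from all mitochondrial transcripts, from the rRNAs and from the mRNAs for the 4 lines (x axis), with vehicle in blue and the combination in red, 1 point per library and a line at each mean. The mRNA share of the H460 combination libraries (2.29% and 2.03%) lies above its vehicle libraries (1.41% and 1.16%), and the H1703 groups overlap there.

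The 2 rRNAs differed by orders of magnitude in these libraries. MT-RNR2 had 633752 to 1478329 normalised reads per kb, and MT-RNR1, the 12S rRNA of the small subunit, 53.7 to 455. Both rRNAs are cut from the same precursor. The labels name a SMARTer stranded total RNA kit, and which ribosomal RNAs were removed in preparation was not given in the sources used here. A ratio of the 2 therefore describes these libraries, and a difference in the cells and one in rRNA removal cannot be told apart.

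MT-RNR2 stood at 982672 and 892431 normalised reads per kb in H460 vehicle and at 1135444 and 1176532 with the combination. In H1703 it went from 717358 and 633752 to 909826 and 786294. In HCC827 it went from 1392525 and 1478329 to 1132775 and 1021158, and in H441 from 1107608 and 1135008 to 1206661 and 1238357. The treatment groups were apart in every line, lower only in HCC827. On the deposited log2 scale the change (combination minus vehicle) was 0.30 ± 0.08 (SE) in H460 (adjusted p = 0.0184), 0.33 ± 0.08 in H1703 (adjusted p = 0.00956), -0.42 ± 0.08 in HCC827 (adjusted p = 0.00923) and 0.12 ± 0.08 in H441 (adjusted p = 0.511), by limma with Benjamini-Hochberg adjustment over 23968 genes. The call in H460 was lost without vehicle replicate 2 (0.23), combination replicate 1 (0.33) or combination replicate 2 (0.28). In H1703 it was lost without vehicle replicate 2 (0.24) or combination replicate 1 (0.22), and in HCC827 without vehicle replicate 2 (-0.37) or combination replicate 2 (-0.34). Centring each library on its median ended the calls in H460 (0.11) and H1703 (0.08), and scaling to nuclear reads that in H460 (0.24). Without limma's trend and robust settings none of the 3 calls passed (adjusted p = 0.0938, 0.0578 and 0.0769 in H460, H1703 and HCC827).

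MT-RNR1 had 151 and 105 normalised reads per kb in H1703 vehicle and 89.0 and 53.7 with the combination, a change of -0.84 ± 0.20 (adjusted p = 0.00265, limma). In H460 it was 192 and 224 against 165 and 159 (-0.35 ± 0.20, adjusted p = 0.229). In HCC827 it was 230 and 213 against 218 and 300, and in H441 402 and 362 against 444 and 455, neither of which passed the test. In the 2 responsive lines the 16S rose or stood higher while the 12S stood lower, and the ratio of 16S to 12S per kb went from 5125 and 3979 to 6898 and 7401 in H460. In H1703 it went from 4748 and 6035 to 10218 and 14644. In HCC827 it was 6056 and 6929 against 5190 and 3408, and in H441 2757 and 3138 against 2722 and 2721. The 12S call in H1703 was lost without vehicle replicate 1 (-0.58) or combination replicate 2 (-0.49), and the gene had only 65 to 478 reads a library.

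In vehicle the 13 mRNAs kept nearly the same order per kb in all lines. MT-CO1, the catalytic subunit of complex IV, was the highest at 38452 to 59204 normalised reads per kb and supplied 37.7% to 52.4% of mRNA reads in the vehicle libraries. MT-ATP8 and MT-ATP6 came next in every line, with means of 18746 to 32595 and 13437 to 21621. MT-CYB (3196 to 5775) and MT-ND3 (1923 to 3021) were the lowest in every line. Between them MT-ND5, MT-ND6, MT-CO3, MT-CO2, MT-ND1, MT-ND2, MT-ND4 and MT-ND4L lay within means of 4771 to 12973. In H460 the ranges of the 2 vehicle libraries overlapped for all neighbours in the order of these 8, and in the other lines they did for most, with MT-ND5 above MT-CO3 in H1703, MT-ND6 above MT-CO3 in HCC827, and MT-CO3 above MT-ND6 and MT-ND4 above MT-ND4L in H441 as the exceptions. Vehicle levels differed among lines for 15 of the 31 genes in limma's F test, a smaller share than the 73.4% of all genes tested. These were both rRNAs, the 12 heavy-strand mRNAs and MT-TQ, while MT-ND6 missed the threshold (adjusted p = 0.0526).

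**Figure D2:**
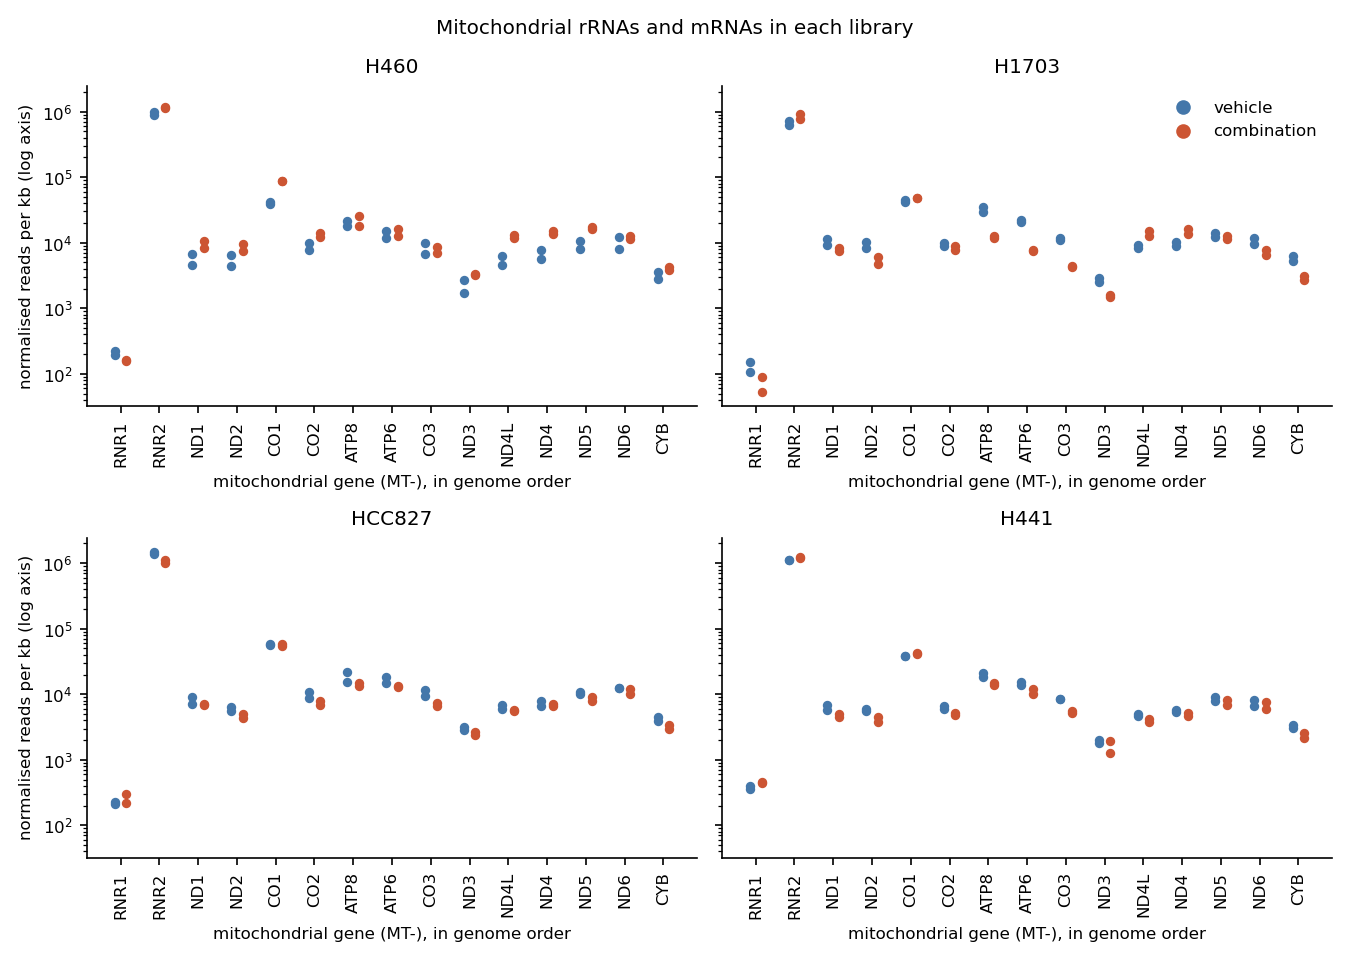
Normalised reads per kb (y axis, log scale) of the 2 rRNAs and 13 mRNAs in genome order (x axis), 1 panel per line and 1 point per library, with vehicle in blue and the combination in red. MT-RNR2 lies above all others and MT-RNR1 below them in every library. In H1703 the combination points of MT-ATP8, MT-ATP6 and MT-CO3 lie below vehicle and those of MT-ND4L and MT-ND4 above it.

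With the combination, the mitochondrial RNAs called were all higher in H460, mixed in H1703 and all lower in HCC827 and H441. In H460, 10 of the 31 genes were higher and 0 lower (adjusted p at most 0.05, limma), where 26.7% of all genes tested were called, 14.1% as higher and 12.6% as lower. At an unadjusted p under 0.05, 13 were higher and 0 lower, and limma with voom on the recovered reads called 9 higher and 0 lower. In H1703, 5 were higher and 10 lower, where 35.5% of all genes were called, 17.9% as higher and 17.6% as lower. In HCC827, 0 were higher and 3 lower, where 9.92% were called, 4.42% as higher and 5.5% as lower. In H441, 0 were higher and 3 lower, where 4.63% were called, 2.77% as higher and 1.86% as lower. At an unadjusted p under 0.05 HCC827 had 0 higher and 5 lower and H441 0 higher and 9 lower, and voom called 0 higher in both and 1 and 2 lower. Single libraries moved these counts. In H460, 6 were higher without vehicle replicate 2 or combination replicate 1, and in H1703 3 were higher without vehicle replicate 2 or combination replicate 1 and 6 lower without combination replicate 2. In HCC827, 0 were lower without vehicle replicate 2 or combination replicate 2. In H441, 0 were lower without vehicle replicate 2 or combination replicate 1, 1 without combination replicate 2, and 5 without either vehicle library of H460. The median change of the 31 genes was 0.35 in H460, -0.49 in H1703, -0.28 in H441 and -0.19 in HCC827, against medians of 0.05, 0.08, 0 and 0 over all genes tested. The share of the 31 genes that was called lay near that of all genes in HCC827 and above it in the other lines, with the widest gap in H1703. That gap depends on the filter, since low genes were called less often. With a filter at 3 above the lowest value, 6270 of 15342 genes were called in H460 and 8010 in H1703. The same filter gave 2594 in HCC827 and 1296 in H441, each a larger share than with the main filter.

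By class, the 13 mRNAs gave 8 higher and 0 lower in H460, 3 higher and 6 lower in H1703, 2 lower in HCC827 and 1 lower in H441. Called genes made up 61.5%, 69.2%, 15.4% and 7.69% of the mRNAs in these lines, and 26.7%, 35.5%, 9.92% and 4.63% of all genes. At an unadjusted p under 0.05 the mRNAs had 0 lower in H460 and 0 higher in HCC827 and H441, and so too with voom, which also called 0 lower in the latter 2. The 16 tRNA genes gave 1 higher in H460, 1 higher and 3 lower in H1703, none in HCC827 (0 also at an unadjusted p under 0.05 and 0 with voom) and 2 lower in H441. The libraries of the 2 treatments did not overlap for 16 of 31 genes in H460, where 56.9% of all genes did not, 21 in H1703 (67.3% of all genes), 14 in HCC827 (50.1%) and 21 in H441 (44.9%).

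**Figure D3:**
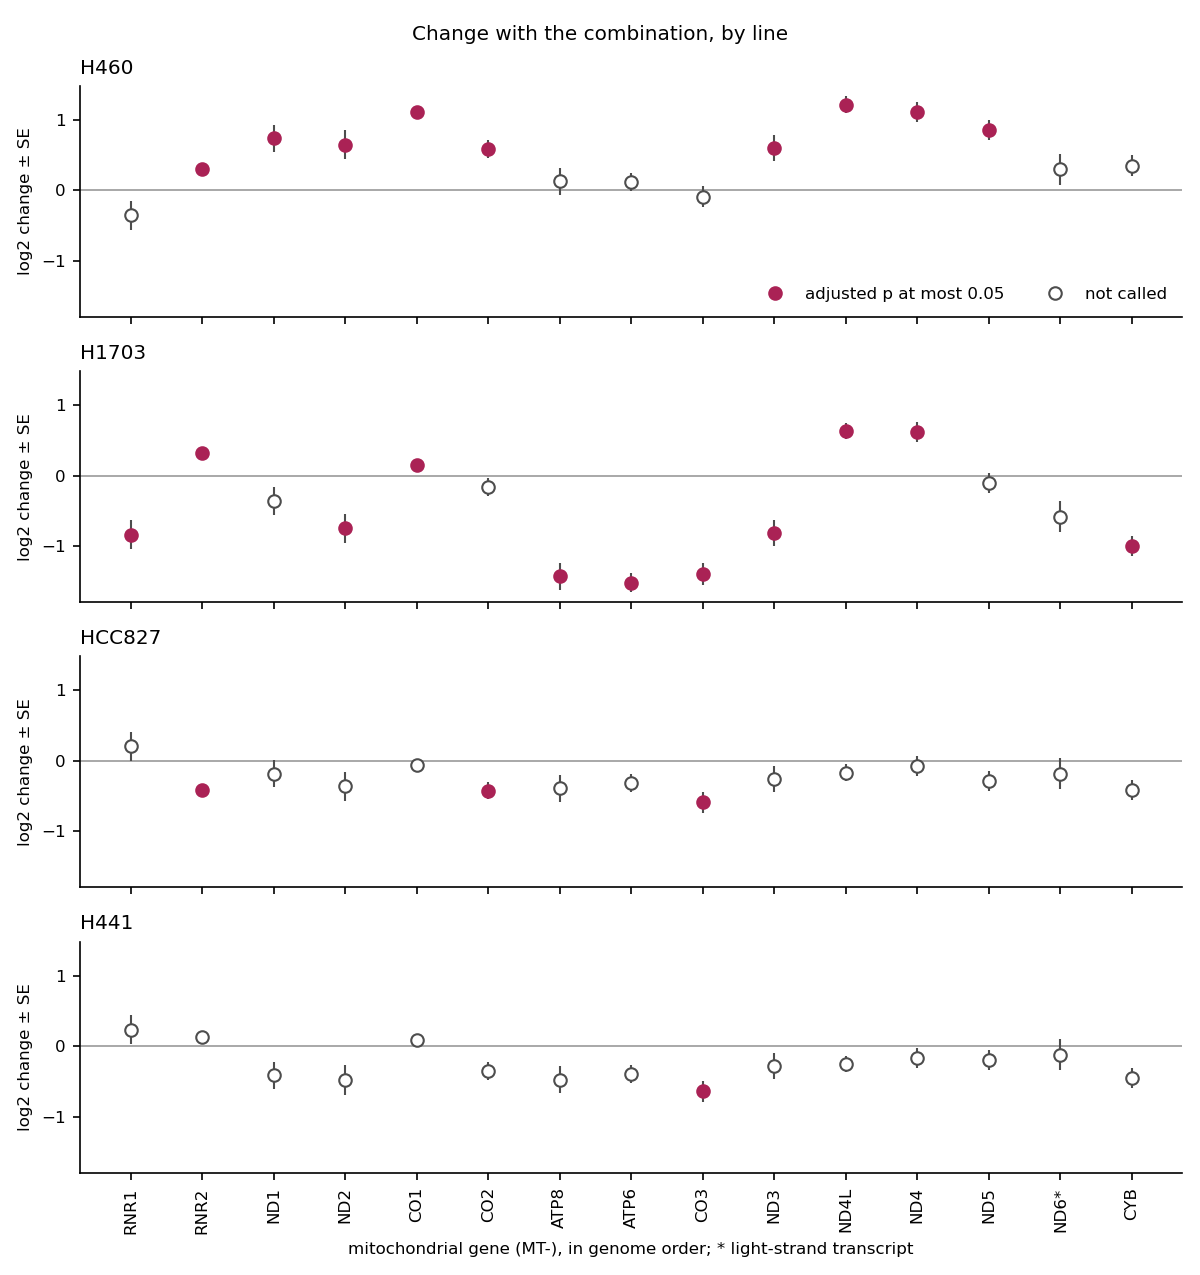
Change with the combination on the deposited log2 scale with its SE (y axis) for the rRNAs and mRNAs in genome order (x axis), 1 panel per line, with filled points at adjusted p of at most 0.05. In H1703 the values run from -1.52 (MT-ATP6) to 0.63 (MT-ND4L), while in H460 all called points lie above 0.

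Both ATP synthase subunits were called lower in H1703 and in no other line. MT-ATP6, part of the proton channel, stood at 22173 and 21069 normalised reads per kb in H1703 vehicle and at 7690 and 7414 with the combination. This was 2.86-fold lower, a change of -1.52 ± 0.13 (adjusted p = 5.09e-07, limma). MT-ATP8, an accessory membrane subunit, stood at 35433 and 29757 in vehicle and at 12510 and 11668 with the combination (-1.43 ± 0.19, adjusted p = 0.000112). Both groups were far apart in that line.

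In the other lines neither gene was called. MT-ATP6 was 14886 and 11987 against 16465 and 12843 in H460, with overlapping libraries (0.12 ± 0.13, adjusted p = 0.562). MT-ATP6 was 14907 and 18067 against 13045 and 13322 in HCC827 (-0.32 ± 0.13, adjusted p = 0.162) and 13724 and 15436 against 10160 and 11987 in H441 (-0.40 ± 0.13, adjusted p = 0.108). MT-ATP8 was 21478 and 18039 against 25762 and 17980 in H460, 15286 and 22205 against 13582 and 14635 in HCC827, and 18625 and 21146 against 13661 and 14845 in H441. None of these passed the test, although the combination libraries lay below vehicle in both non-responsive lines. Leaving out 1 H460 library brought MT-ATP6 in H441 past the threshold (adjusted p = 0.0401 to 0.0466), and leaving out vehicle replicate 1 of HCC827 did so for MT-ATP8 there (-0.65). The test of the difference among lines passed for both (adjusted p = 6.54e-05 for MT-ATP6 and 0.00576 for MT-ATP8).

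The complex IV subunits split 3 ways. MT-CO1 stood at 42592 and 38452 normalised reads per kb in H460 vehicle and at 86486 and 88592 with the combination, 2.16-fold higher (1.11 ± 0.05, adjusted p = 1.82e-12, limma). Quantile normalisation brought this value to 0.31 and ended the call (adjusted p = 0.169). In H1703 it was 45674 and 42271 against 48404 and 48997 (0.15 ± 0.05, adjusted p = 0.0206), in HCC827 57389 and 59204 against 57526 and 54444, and in H441 38844 and 38685 against 40487 and 41880. The H1703 value is small and rests on the scaling, since median centring gave -0.09 and quantile normalisation -0.59, with an adjusted p of 0.0121 for the latter. The H1703 call was also lost without vehicle replicate 2 (0.09), combination replicate 1 (0.16) or combination replicate 2 (0.14).

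MT-CO2, which takes up electrons from cytochrome c, was called higher in H460 (0.59 ± 0.12, adjusted p = 0.00199) and lower in HCC827 (-0.42 ± 0.12, adjusted p = 0.0432), with -0.16 ± 0.12 in H1703 and -0.35 ± 0.12 in H441. The HCC827 call was lost without vehicle replicate 2 (-0.28) or combination replicate 2 (-0.32). It was also lost at an unchanged value (adjusted p = 0.0504 to 0.0526) without either combination library of H460 or of H441. Other settings ended it as well, with quantile normalisation (-0.38), scaling to nuclear reads (-0.39) and voom (-0.44). MT-CO3, the third core subunit, fell in H1703 from 11991 and 11046 normalised reads per kb to 4496 and 4233 (-1.40 ± 0.15, adjusted p = 1.01e-05). It was also called lower in HCC827, from 9460 and 11515 to 7364 and 6545 (-0.59 ± 0.15, adjusted p = 0.0287). In H441 it was called lower too, from 8484 and 8477 to 5232 and 5639 (-0.64 ± 0.15, adjusted p = 0.0335). In H460 its libraries overlapped, 9805 and 6845 against 8641 and 6864. The HCC827 call was lost without vehicle replicate 2 (-0.45), combination replicate 1 (-0.67) or combination replicate 2 (-0.50). The H441 call was lost without vehicle replicate 1 (-0.64), vehicle replicate 2 (-0.64), combination replicate 1 (-0.59) or combination replicate 2 (-0.70). Scaling to nuclear reads (-0.55 and -0.70) and voom (-0.60 and -0.64) ended the MT-CO3 calls in HCC827 and H441, and quantile normalisation (-0.52) that in HCC827.

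Of the 6 complex I subunits from the heavy strand, MT-ND4L and MT-ND4 moved upward in both responsive lines. MT-ND4L stood at 6307 and 4643 normalised reads per kb in H460 vehicle and at 13272 and 11925 with the combination (1.22 ± 0.12, adjusted p = 1.2e-07, limma). In H1703 MT-ND4L went from 9296 and 8410 to 14993 and 12556 (0.63 ± 0.12, adjusted p = 0.000244). HCC827 had 5908 and 6952 against 5628 and 5791, and in H441 4603 and 4939 against 3816 and 4175, neither past the test. MT-ND4, which lies directly downstream and overlaps it, had changes of 1.11 ± 0.14 in H460 (adjusted p = 8.23e-05), 0.62 ± 0.14 in H1703 (adjusted p = 0.00455), -0.07 ± 0.14 in HCC827 and -0.17 ± 0.14 in H441. Median centring took the H1703 value to 0.38 (adjusted p = 0.052).

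MT-ND3, a small subunit and the mRNA of lowest level, rose in H460 from 2686 and 1730 normalised reads per kb to 3354 and 3230 (0.61 ± 0.18, adjusted p = 0.0216). It fell in H1703 from 2947 and 2545 to 1615 and 1499 (-0.81 ± 0.18, adjusted p = 0.00241). It was 2862 and 3181 against 2614 and 2431 in HCC827 and 1829 and 2016 against 1281 and 1952 in H441. The H460 call was lost without vehicle replicate 2 (0.29), combination replicate 1 (0.58) or combination replicate 2 (0.64), and under median centring (0.41).

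MT-ND5, a proton-pumping subunit, rose in H460 from 10767 and 7922 normalised reads per kb to 17192 and 16433 (0.86 ± 0.14, adjusted p = 0.00076). In H1703 it was 13856 and 12090 against 12882 and 11233, in HCC827 9959 and 10674 against 9065 and 7943, and in H441 8023 and 9077 against 6845 and 8151, none of which passed the test. MT-ND2 had opposite calls, 0.65 ± 0.21 in H460 (adjusted p = 0.0416) and -0.75 ± 0.21 in H1703 (adjusted p = 0.0171). MT-ND1 was called in H460 (0.74 ± 0.19, adjusted p = 0.0161), with -0.36 ± 0.19 in H1703, -0.18 ± 0.19 in HCC827 and -0.41 ± 0.19 in H441. The H460 call of MT-ND2 was lost without vehicle replicate 2 (0.38) or combination replicate 1 (0.46) of H460. It was also lost at an unchanged value without either combination library of HCC827 (adjusted p = 0.0532), without limma's trend and robust settings (adjusted p = 0.0627) and with the H460 libraries alone (adjusted p = 0.138). Median centring (0.46), quantile normalisation (0.46), scaling to nuclear reads (0.59) and voom (adjusted p = 0.0506) ended it as well. The H1703 call of MT-ND2 was lost without vehicle replicate 1 (-0.59) or combination replicate 2 (-0.57) and under quantile normalisation (-0.49) or scaling to nuclear reads (-0.62). The MT-ND1 call was lost without vehicle replicate 2 (0.47) or combination replicate 1 (0.56), under quantile normalisation (0.54) and with the H460 libraries alone (adjusted p = 0.101).

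MT-CYB, the one complex III subunit the mitochondrial genome encodes, fell in H1703 from 6318 and 5232 normalised reads per kb to 3104 and 2674 (-0.996 ± 0.145, adjusted p = 7.91e-05, limma). In H460 it was 3627 and 2765 against 4251 and 3850 (0.35 ± 0.15, adjusted p = 0.0939). HCC827 had 3952 and 4517 against 3455 and 2911 (-0.41 ± 0.15, adjusted p = 0.0955). In H441 it was 3021 and 3427 against 2121 and 2608 (-0.45 ± 0.15, adjusted p = 0.103). The groups did not overlap in any line, higher with the combination in H460 and lower in the other 3. Leaving out vehicle replicate 1 of H460 brought the H460 value past the threshold (0.55). Leaving out either vehicle library of H460 did so, at an unchanged value, in HCC827 (adjusted p = 0.0311 and 0.0312) and H441 (adjusted p = 0.0343 and 0.0346).

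Position along the precursor was compared with the change. Across the 12 heavy-strand mRNAs, the start position and the change had Pearson's r of -0.06 in H460, 0.02 in H1703, 0.02 in H441 and -0.16 in HCC827. These points share libraries and a precursor, and the values are a description. The overlapping pairs had nearly equal changes. The change of MT-ATP8 minus that of MT-ATP6 was 0.01 in H460, 0.09 in H1703, -0.08 in H441 and -0.07 in HCC827 (log2), and that of MT-ND4L minus MT-ND4 was 0.11, 0.01, -0.09 and -0.09, in the same order of lines. For MT-ATP6 minus MT-CO3, which share 1 base, it was 0.21 in H460, -0.12 in H1703, 0.24 in H441 and 0.27 in HCC827. Several next neighbours without an overlap differed more in H1703, with -1.45 between MT-ND3 and MT-ND4L, 1.26 between MT-CO2 and MT-ATP8, 0.89 between MT-ND5 and MT-CYB and -0.90 between MT-ND2 and MT-CO1. Elsewhere some neighbours without an overlap were as close as the 2 pairs with the longest overlaps. These were -0.02 between MT-ND3 and MT-ND4L and 0.03 between MT-ND4 and MT-ND5 in H441, and -0.04 between MT-CO2 and MT-ATP8 in HCC827. In H460 the value between MT-ND1 and MT-ND2 was 0.09.

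A ratio of 2 genes within a library does not depend on the scaling between libraries. The ratios per kb of MT-ND4 to MT-ATP6, MT-ND4 to MT-CO3 and MT-CO1 to MT-CO3 were chosen after the values had been seen. MT-ND4 over MT-ATP6 was 0.463 and 0.421 in H1703 vehicle and 2.10 and 1.80 with the combination, and 0.524 and 0.475 against 0.915 and 1.07 in H460. In HCC827 it was 0.446 and 0.431 against 0.544 and 0.496, and in H441 0.386 and 0.368 against 0.451 and 0.436. The combination side was the higher one without overlap in all 4 lines, by 4.41-fold in H1703, 1.99-fold in H460, 1.18-fold in HCC827 and 1.18-fold in H441. MT-ND4 over MT-CO3 behaved alike, from 0.703 and 0.677 to 0.964 and 1.01 in HCC827 and from 0.625 and 0.669 to 0.876 and 0.926 in H441. In H1703 it went from 0.855 and 0.803 to 3.59 and 3.16, and in H460 from 0.796 and 0.832 to 1.74 and 2.01. MT-CO1 over MT-CO3 was higher without overlap as well, 2.93-fold in H1703, 2.30-fold in H460, 1.44-fold in HCC827 and 1.66-fold in H441.

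**Figure D4:**
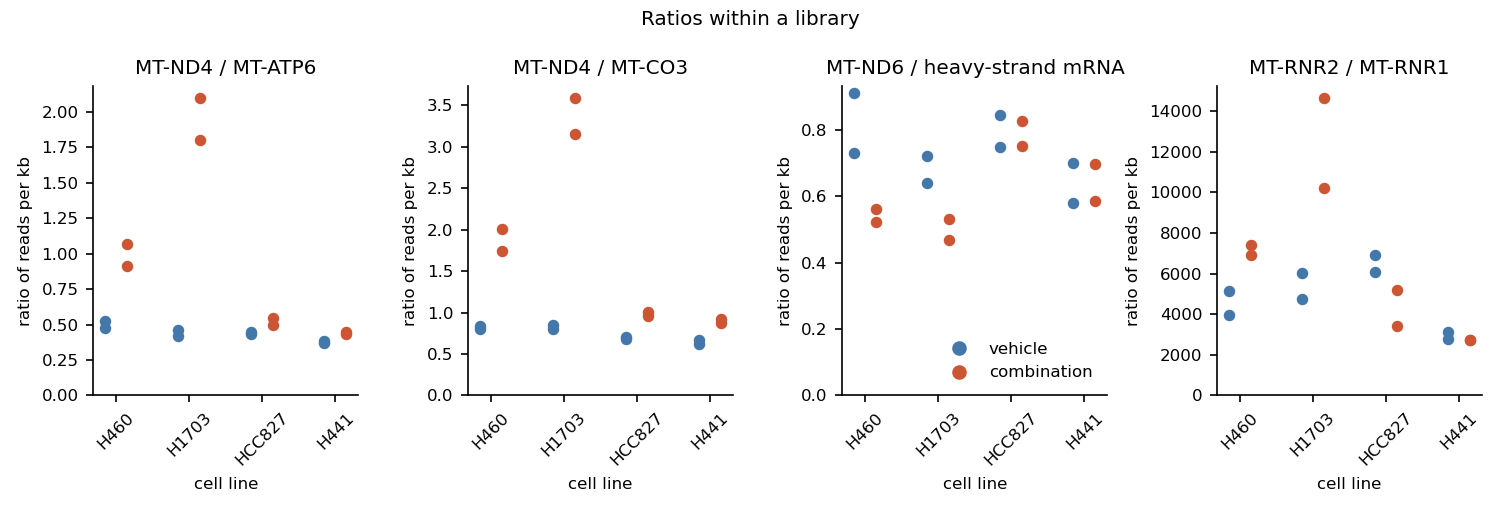
Ratios of reads per kb within a library (y axis) by line (x axis), with vehicle in blue and the combination in red and 1 point per library. MT-ND4 over MT-ATP6 and over MT-CO3 is higher with the combination in all 4 lines, MT-ND6 over the heavy-strand mRNAs is lower in H460 and H1703 and overlaps in HCC827 and H441, and MT-RNR2 over MT-RNR1 is higher in H460 and H1703.

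MT-ND6, a complex I subunit and the light strand's only mRNA here, was called in no line (at an unadjusted p under 0.05 it was lower in H1703). It stood at 12134 and 7930 normalised reads per kb in H460 vehicle and at 12842 and 11325 with the combination (0.30 ± 0.22, adjusted p = 0.391, limma). In H1703 it was 11997 and 9467 against 7835 and 6457 (-0.58 ± 0.22, adjusted p = 0.0666). HCC827 had 12583 and 12256 against 11862 and 10106 (-0.18 ± 0.22, adjusted p = 0.714), and in H441 6511 and 8302 against 5954 and 7669 (-0.12 ± 0.22, adjusted p = 0.88). Its responses did not pass the test of a difference among lines (adjusted p = 0.213), whereas those of the 12 heavy-strand mRNAs did, and it passed without vehicle replicate 1 of H460 (adjusted p = 0.0146). The H1703 value passed under median centring (-0.83) and without vehicle replicate 1 or vehicle replicate 2 of H460 (adjusted p = 0.0094 and 0.0103), and the H460 value passed without vehicle replicate 1 (0.60).

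Set against the summed heavy-strand mRNAs, of which MT-CO1 supplies a large share, MT-ND6 stood lower with the combination in the responsive lines. Per kb the ratio was 0.909 and 0.729 in H460 vehicle against 0.562 and 0.521, and 0.722 and 0.638 in H1703 vehicle against 0.530 and 0.468. In HCC827 it was 0.843 and 0.748 against 0.826 and 0.750, and in H441 0.579 and 0.700 against 0.586 and 0.695. The groups were apart in both responsive lines and overlapped in both others. The direction depends on the mRNA it is set against. MT-ND6 over MT-ND5 was likewise lower in H460 (0.675-fold) and H1703 (0.717-fold). MT-ND6 over MT-CYB was 1.90 and 1.81 in H1703 vehicle against 2.52 and 2.41, 1.33-fold higher without overlap, and also higher without overlap in HCC827 (1.17-fold) and H441 (1.26-fold), while in H460 the libraries overlapped. MT-ND6 also differs in its letters, with 35.6% G and 7.05% C against 6.28% to 16.2% G in the other mRNAs. Its gene (chrM:14149-14673) follows directly on MT-ND5 (chrM:12337-14148) on the opposite strand, and the MT-ND5 transcript is known to run on across it. Whether the counting used strand was not given in the sources used here, so reads of MT-ND6 and of RNA antisense to it cannot be told apart.

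The 16 transfer RNA genes had few reads, and 3 of them, MT-TS1, MT-TP and MT-TQ, held 68.8% to 93.4% of tRNA reads in a library. The 7 light-strand tRNA genes had 357 to 1103 reads in sum and the 9 heavy-strand ones 35 to 77. Per kb the light-strand genes were 8.25 to 33.6 times as high, and 4.24 to 17.3 times when genes of under 10 reads on average were left out. With the combination this ratio went from 14.2 and 13.04 to 33.6 and 24.7 in H1703 and from 14.4 and 11.6 to 17.3 and 16.2 in H460. It was 16.3 and 19.2 against 19.6 and 15.7 in HCC827, and 11.2 and 8.44 against 10.4 and 8.25 in H441, where the libraries overlapped in each line. Reads over a tRNA gene can come from the cut tRNA, from a precursor or, without strand, from RNA of the other strand, and these cannot be told apart.

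MT-TP, which lies last before the control region, rose in both responsive lines. It had 124 and 87.3 normalised reads in H460 vehicle and 226 and 254 with the combination (1.18 ± 0.20, adjusted p = 0.000108, limma). In H1703 it had 133 and 113 against 276 and 210 (0.96 ± 0.20, adjusted p = 0.000642). In HCC827 it had 159 and 132 against 175 and 149, and in H441 133 and 183 against 119 and 141, with overlapping libraries in both. MT-TS1, whose gene has its 3′ end at the base after MT-CO1 on the other strand, had 328 and 206 normalised reads in H1703 vehicle and 806 and 310 with the combination (0.94 ± 0.38, adjusted p = 0.0859). In H460 it had 243 and 168 against 369 and 322 (0.76 ± 0.38, adjusted p = 0.187), in HCC827 301 and 346 against 296 and 215, and in H441 227 and 190 against 169 and 174. The MT-TS1 value in H1703 depends on its unlike combination libraries, 806 in replicate 1 and 310 in replicate 2. It was 1.62 without replicate 2, which leaves the higher library, while the 310 of replicate 2 lies between the vehicle values. The H460 value of MT-TS1 passed, at an unchanged size, without combination replicate 1 or 2 of H1703 (adjusted p = 0.00962 and 0.00931).

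MT-TQ went the other way. It had 145 and 152 normalised reads in H1703 vehicle and 82.8 and 76.4 with the combination (-0.88 ± 0.26, adjusted p = 0.0114), and 62.9 and 72.7 against 23.2 and 29.1 in H441 (-1.30 ± 0.26, adjusted p = 0.00532). In H460 it had 102 and 54.3 against 85.6 and 59.3, and in HCC827 87.3 and 80.0 against 76.5 and 55.3. The H1703 call was lost without vehicle replicate 2 (-0.85) or combination replicate 2 (-0.82) and the H441 call without vehicle replicate 2 (-1.20) or combination replicate 1 (-1.15). MT-TE, which lies between MT-ND6 and MT-CYB, had 25.3 and 23.8 normalised reads in H1703 vehicle and 3.27 and 7.09 with the combination (-1.87 ± 0.47, adjusted p = 0.0034). These stem from 26 and 34 against 3 and 9 reads, and the call was lost without combination replicate 1 (-1.49). In the other lines its libraries overlapped, with 17.6 and 25.2 against 39.8 and 17.1 in H460, 36.4 and 45.6 against 34.1 and 36.9 in HCC827, and 32.0 and 60.8 against 13.1 and 47.2 in H441.

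MT-TC, the cysteine tRNA, had 4 to 23 reads a library and was called in no line. Its normalised reads were 5.87 and 6.29 against 13.3 and 17.1 in H460, 8.77 and 3.503 against 8.71 and 18.1 in H1703, 4.85 and 8.10 against 5.88 and 15.7 in HCC827 and 9.94 and 18.4 against 13.1 and 11.8 in H441. The remaining called tRNAs rest on very few reads. MT-TI in H441 had 10 and 15 reads in vehicle and 2 and 3 with the combination (adjusted p = 0.0161), and the call was lost without vehicle replicate 2, combination replicate 1 or combination replicate 2 (adjusted p = 0.146, 0.0974 and 0.0592). MT-TT in H1703 had 12 and 11 reads against 5 and 1 (adjusted p = 0.0444), a call lost without vehicle replicate 1, vehicle replicate 2 or combination replicate 2 of H1703 (adjusted p = 0.229, 0.0729 and 0.461). Leaving out vehicle replicate 2 of H460 or either vehicle library of H441 ended it too (adjusted p = 0.0504 to 0.0526). The other 9 tRNA genes had between 0 and 32 reads a library and none was called in a line.

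**Figure D5:**
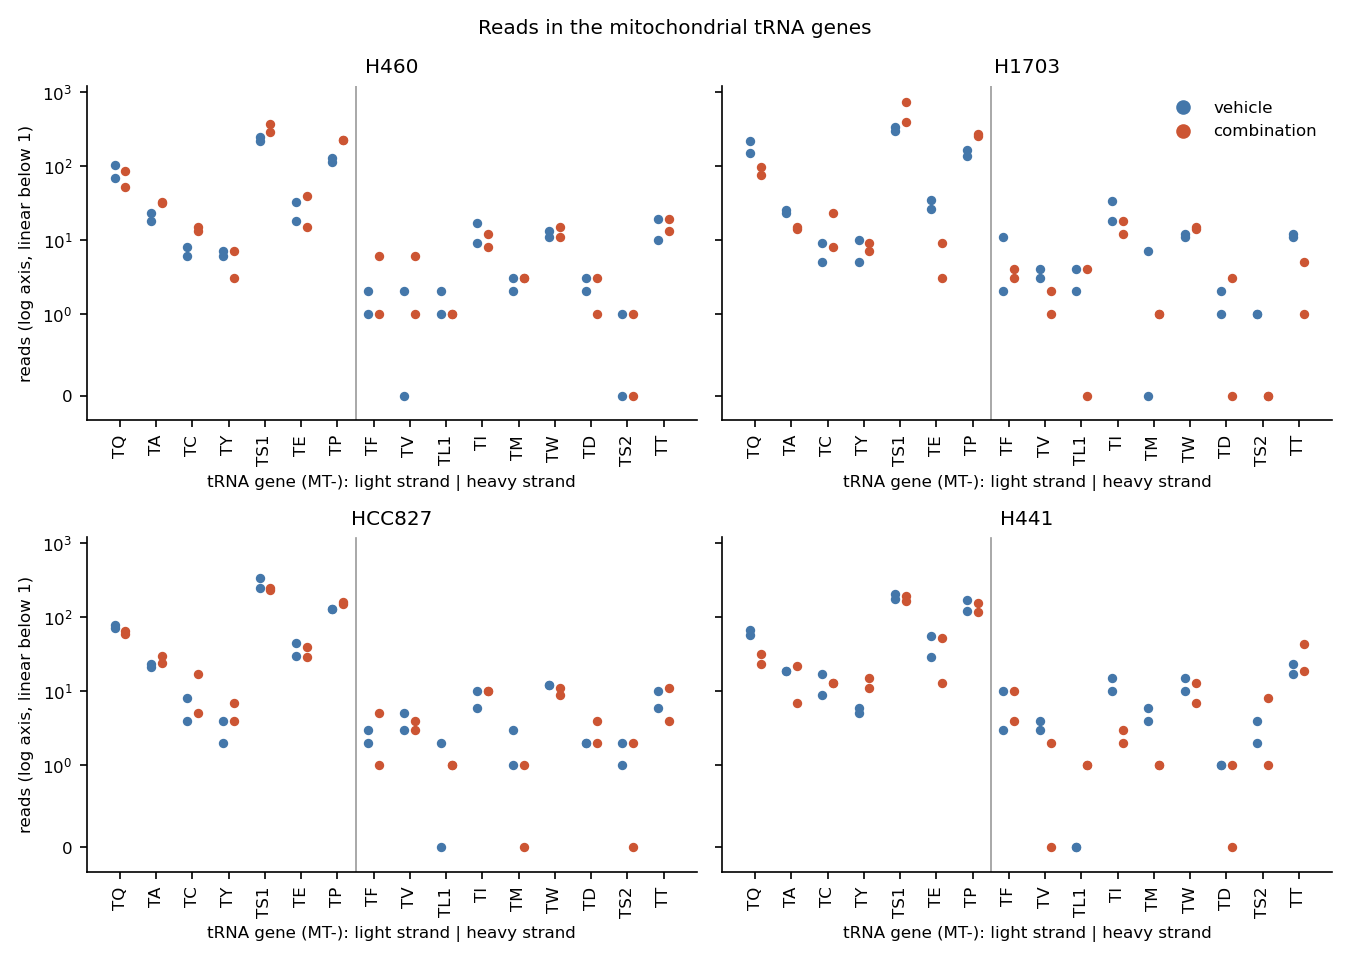
Reads in each mitochondrial tRNA gene (y axis, log scale that is linear below 1) by gene (x axis), 1 panel per line and 1 point per library, with vehicle in blue and the combination in red. A vertical line parts the light-strand genes from the heavy-strand genes. MT-TS1 is the highest in every library and MT-TP or MT-TQ comes next.

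Averaged over the 4 lines, 4 genes were higher (MT-CO1, MT-ND4L, MT-ND4 and MT-TP) and 6 lower (MT-ATP8, MT-ATP6, MT-CO3, MT-CYB, MT-TQ and MT-TE) in limma, where 35.2% of all genes were called, 18.4% as higher and 16.7% as lower. That is a share near the background. The mean changes ran from -0.68 ± 0.08 for MT-CO3 (adjusted p = 1.28e-05) to 0.51 ± 0.10 for MT-TP (adjusted p = 0.000352). MT-CO3 was lower in HCC827, H441 and H1703 and had overlapping libraries in H460. The mean for MT-TE (-0.63, adjusted p = 0.0421) was lost without any 1 of 11 libraries, at -0.42 without combination replicate 1 of H441 and -0.49 without combination replicate 2 of H460. The mean is described for these lines only, since 17 of the 31 genes passed the F test of a difference among lines, where 31.8% of all genes did, a larger share than the background. With the filter at 3 above the lowest value, 7572 of 15342 genes passed that F test, so this gap too depends on the filter.

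The responsive and non-responsive lines were then set against each other, as the mean change in H460 and H1703 minus that in HCC827 and H441. For 7 genes the difference was above 0 and for 1 below (23.3% of all genes called, 11.2% above 0 and 12.1% below, limma), a share near the background. MT-ND4L (1.14 ± 0.12), MT-TP (1.12 ± 0.20) and MT-ND4 (0.98 ± 0.14) had the highest values, followed by MT-CO1, MT-ND5, MT-CO2 and MT-RNR2, and MT-RNR1 was the one below 0 (-0.82 ± 0.20). Some of these differences came mostly from a single line. MT-CO2 and MT-ND5 were called higher in H460 but not in H1703, and the change of MT-CO1 in H1703 was small. MT-RNR2 was lower only in HCC827 and not called in H441. The difference for MT-ATP6 was -0.34 ± 0.13 (adjusted p = 0.0789), and those for MT-ATP8 (-0.22), MT-CO3 (-0.13) and MT-CYB (0.11) did not pass. Leaving out 1 of 4 libraries brought MT-ATP6 past the threshold: vehicle replicate 2 (-0.42) or combination replicate 1 (-0.43) of H460, vehicle replicate 2 of HCC827 (-0.41) or combination replicate 1 of H441 (-0.40). The median centring alternative brought it to -0.55 (adjusted p = 0.00142). MT-TS1 (1.16 ± 0.38, adjusted p = 0.0526) passed without vehicle replicate 1 of H460 (1.29) or without vehicle replicate 1 (1.33), combination replicate 1 (0.82) or combination replicate 2 (1.504) of H1703. With 2 lines a class, the comparison describes these lines.

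Genes that nuclear DNA encodes for mitochondrial RNA were followed through lists written from general knowledge. Of 20 genes of mitochondrial DNA transcription and replication, 4 were higher and 8 lower in H460, 5 and 7 in H1703, 3 and 1 in HCC827 and 1 and 1 in H441, where 26.7%, 35.5%, 9.92% and 4.63% of all genes were called in either direction. TFAM, which packs the mitochondrial DNA and opens its promoters, fell in H460 (-0.99 ± 0.09, adjusted p = 4.02e-08) and H1703 (-1.13 ± 0.09, adjusted p = 4.15e-09). It was also called in HCC827 (-0.29 ± 0.09, adjusted p = 0.0415). That call was lost without any 1 of 9 libraries, most without combination replicate 2 of HCC827 (-0.17). Median centring (-0.32), quantile normalisation (-0.22) and scaling to nuclear reads (-0.26) ended it too, as did leaving out limma's trend and robust settings. DNA2, a nuclease and helicase, fell in H460 (-1.68 ± 0.14) and H1703 (-1.22 ± 0.14), and MGME1, an exonuclease that trims mitochondrial DNA ends, fell by 0.70 in H460 and by 1.84 in H1703 on the log2 scale. POLG2, the accessory subunit of the DNA polymerase, rose in H460 (0.62 ± 0.13) and H1703 (1.23 ± 0.13). Its call in HCC827 (0.43 ± 0.13, adjusted p = 0.0382, limma) was lost without vehicle replicate 1 (0.31), combination replicate 1 (0.46) or combination replicate 2 (0.40) of HCC827. Leaving out either vehicle library of H1703 ended that call at an unchanged value. Median centring (0.40) and leaving out limma's trend and robust settings ended it too. POLRMT, the mitochondrial RNA polymerase, rose in H1703 (0.66 ± 0.10, adjusted p = 3.68e-05) and had 0.01 ± 0.10 in H460. TEFM, its elongation factor, fell in H1703 (-0.99 ± 0.20, adjusted p = 0.000642) and was called lower in H441 (-0.82 ± 0.20, adjusted p = 0.0238), a call lost without any 1 of the 4 H441 libraries (-0.75 to -0.88).

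Of 24 measured genes of mitochondrial RNA cutting, polyadenylation and decay, 1 was higher and 8 lower in H460, 2 higher and 16 lower in H1703, and 0 in HCC827 and H441. Of all genes, 14.1% were higher and 12.6% lower in H460, 17.9% and 17.6% in H1703, and 9.92% and 4.63% were called in HCC827 and H441. At an unadjusted p under 0.05 the last 2 lines had 5 higher and 2 lower, and 1 higher and 4 lower, and voom called 1 lower in each. TRMT10C, a subunit of the enzyme that cuts the 5′ end of mitochondrial tRNAs, fell in H460 (-0.78 ± 0.10, adjusted p = 5.77e-06) and H1703 (-0.93 ± 0.10, adjusted p = 4.14e-07). FASTKD5, needed to cut precursors at junctions without a tRNA, fell in H1703 (-1.47 ± 0.18, adjusted p = 1.48e-06), with -0.43 ± 0.18, -0.53 ± 0.18 and -0.55 ± 0.18 in H460, HCC827 and H441 (adjusted p = 0.0853, 0.0652 and 0.0867). FASTKD3, of the same family, fell in H1703 (-1.09 ± 0.22, adjusted p = 0.000474). PDE12, which removes poly(A) tails, was called lower in H460 (-0.44 ± 0.12) and H1703 (-0.48 ± 0.12), calls lost without vehicle replicate 1 of H460 (-0.32) and without vehicle replicate 2 of H1703 (-0.32), respectively. SLIRP, the partner of LRPPRC in keeping mitochondrial mRNAs stable, fell in H1703 (-0.55 ± 0.13, adjusted p = 0.00172). LRPPRC itself was called lower there at -0.20 ± 0.07 (adjusted p = 0.0368), and the call was lost without any 1 of the 4 H1703 libraries (-0.16 to -0.24). PNPT1, of the RNA decay machine, was called in no line.

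Of 25 genes that modify mitochondrial rRNA and tRNA, 3 were higher and 7 lower in H460, 4 and 10 in H1703, 1 and 0 in HCC827 and 0 and 0 in H441. Beside these stand the 26.7%, 35.5%, 9.92% and 4.63% of all genes called. In H441, 0 and 4 of the list had an unadjusted p under 0.05 and voom called 1 lower. TRMU, which adds sulfur to tRNA wobble bases, fell in H460 (-1.01 ± 0.15, adjusted p = 3.42e-05) and H1703 (-0.91 ± 0.15, adjusted p = 7.76e-05). METTL15, a 12S rRNA methyltransferase, rose in H1703 (0.70 ± 0.12, adjusted p = 0.000126). Its call in H460 (0.34 ± 0.12, adjusted p = 0.0455) was lost without any 1 of 10 libraries (0.29 to 0.39). Median centring (0.15), quantile normalisation (0.33) and scaling to nuclear reads (0.28) ended it too, as did leaving out the filter or limma's trend and robust settings. QTRT1, which places queuosine in tRNAs, was called higher in H460 (0.61), H1703 (0.66) and HCC827 (0.68). In H460 its call was lost without vehicle replicate 1 (0.47) or combination replicate 1 (0.44). In H1703 it was lost without vehicle replicate 2 (0.59) or combination replicate 1 (0.52), and in HCC827 without any 1 of the 4 HCC827 libraries (0.58 to 0.77). Median centring ended each QTRT1 call (0.42, 0.41 and 0.65 in H460, H1703 and HCC827). ALKBH1, a tRNA demethylase, was called lower in H460 (-0.49 ± 0.16), a call lost without vehicle replicate 1 (-0.56), vehicle replicate 2 (-0.43) or combination replicate 1 (-0.42). The median change of the 3 lists in H1703 was -0.08, -0.46 and -0.35 in the order given, against 0.08 over all genes. In HCC827 and H441 the medians lay within 0.14 of 0. Fits on the libraries of a single line ended further calls of the genes named from these lists. In H460 these were the calls of MGME1, POLG2, PDE12, QTRT1, ALKBH1 and METTL15. In HCC827 the calls of POLG2, TFAM and QTRT1 ended, and in H441 that of TEFM. Whether the changes of these nuclear genes bear on the mitochondrial transcripts was not tested.

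Nuclear DNA holds copies of mitochondrial genes, and the table lists 91 of them, of which 66 passed the filter. Those with the most reads were MTRNR2L12 (95.4% identical to MT-RNR2 over 1044 aligned bases), MTCO1P12 (98.7% identical to MT-CO1), MTATP6P1 (98.5% to MT-ATP6) and MTND2P28 (98.4% to MT-ND2). Each had far fewer reads than its counterpart, for example 37069 against 1294818 for MT-CO1 and 15717 against 158535 for MT-ATP6 over the 16 libraries. MTRNR2L12 had 351929 reads against 26579220 for MT-RNR2. MTCO1P12 had a log2 change of 1.23 ± 0.12 in H460 (1.11 ± 0.05 for MT-CO1) and of 0.26 ± 0.12 in HCC827 (-0.06 ± 0.05 for MT-CO1), where neither passed. MTATP6P1 had -1.30 ± 0.22 in H1703 (-1.52 ± 0.13 for MT-ATP6), and MTND2P28 had -1.26 ± 0.14 in H1703 (-0.75 ± 0.21 for MT-ND2). Reads may be split between copy and original, so small changes of these pairs are uncertain, and the copies are no independent measure.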

How the data were processed

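RNA-seq libraries were analysed from the one deposited table of 16 libraries. The submitters' processing notes name Trimmomatic, STAR, featureCounts and the build hg38 (GRCh38). The annotation release, tool versions, strand setting and handling of reads that match several genes were not given in the sources used here. What the authors deposited are variance-stabilised counts on a log2 scale for 28951 genes, scaled by library. Solving the transform backwards gave values within 0.02 of a whole read for 100% of entries, with totals of 8493271 to 13604150 reads a library. Normalised reads are these reads over the size factor, and per kb values divide by the GENCODE 29 gene length. No molecular identifiers are named.

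Changes were fitted on the deposited log2 values with limma 3.58.1 (R 4.3.3): 1 fit of 8 group means over 16 libraries, empirical Bayes with trend and robust settings, Benjamini-Hochberg adjustment over the 23968 genes whose mean was at least 1 above the lowest value, and a threshold of 0.05. SE is limma's moderated standard error. The other 4983 genes were removed as low. The fit was tested on simulated data. Shares, ratios and position were described without a test. Values per library were given for fixed mRNAs and rRNAs, the 3 tRNAs with the most reads and the 3 with the largest absolute mean change. Those of MT-ATP6, MT-CO3, MT-TI and MT-TT, and the changes of MT-CO2, MT-ND1, MT-ND2 and MT-ND4, were added after their values were seen. From each list of nuclear genes the 4 with the largest mean change and 6 fixed genes are named. The members and gene lists were chosen with earlier results of these data known. Alternatives covered scaling, filter, variance model, voom, replicate block, single lines and leaving out each library.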

Additional observations from a re-analysis of the deposited data

Results flagged for a closer look

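The responses of 8 genes differed between responsive and non-responsive lines in limma's contrast of the responses (log2, responsive minus non-responsive). That is 25.8% of the 31 genes, near the 23.3% of all genes tested that passed. The differences were 1.14 for MT-ND4L, 1.12 for MT-TP, 0.98 for MT-ND4, 0.62 for MT-CO1, 0.62 for MT-ND5, 0.60 for MT-CO2, 0.46 for MT-RNR2 and -0.82 for MT-RNR1. Those of MT-CO1, MT-ND5 and MT-CO2 came mostly from H460, and that of MT-RNR2 in large part from its fall in HCC827. MT-CO1 came to -0.14 under quantile normalisation, and MT-ND5 to 0.41 under median centring, where it no longer passed.

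The responses of 17 genes differed among the 4 lines in limma's F test of the line by treatment interaction. These were 54.8% of the 31 genes, where 31.8% of all genes tested passed. The adjusted p was 4.75e-10 for MT-CO1, 1.95e-06 for MT-ND4L, 6.54e-05 for MT-ATP6, 0.000955 for MT-ND4, 0.00104 for MT-TP, 0.00105 for MT-CO2, 0.0012 for MT-CYB and 0.00163 for MT-RNR2. It was 0.00295 for MT-ND5, 0.00311 for MT-CO3, 0.00375 for MT-ND3, 0.00576 for MT-ATP8, 0.015 for MT-RNR1, 0.0166 for MT-ND2 and 0.0222 for MT-ND1. It was 0.0463 for MT-TI and 0.0471 for MT-TQ, and each of these was lost without any 1 of 13 libraries. That of MT-RNR1 was lost without vehicle replicate 1 or combination replicate 2 of H1703 (adjusted p = 0.0881 and 0.0687), and those of MT-ND1 and MT-ND2 without combination replicate 1 of H460 (adjusted p = 0.102 and 0.0724). With 2 libraries a group, no library was tested for standing apart from its group.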

How the results depend on the processing

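Of the 49 called values of single transcripts over the 4 lines, their mean and the class contrast, 24 kept direction and call under every alternative run, 23 lost the call under at least 1, and 3 changed sign under at least 1, with MT-CO1 in H1703 among both. The sign changes were those of MT-CO1 in H1703 under median centring (-0.094) and quantile normalisation (-0.59), and of its mean over the lines (-0.068) and its class contrast (-0.14) under quantile normalisation. Outside the 49, the nuclear gene LRPPRC turned in H1703 under quantile normalisation (0.10). Calls lost or turned numbered 13 under quantile normalisation, 12 without trend and robust settings, 7 under median centring, 7 with scaling to nuclear reads, 4 with voom, 2 with no filter and 1 with the replicate block. Quantile normalisation sets MT-RNR2, the top gene of every library, to 0 change by construction. Median centring moved all changes by -0.19 in H460, -0.24 in H1703, -0.03 in HCC827, 0.01 in H441, -0.11 for the mean and -0.21 for the class contrast. It moved the share of calls that were higher among all genes from 52.7% to 32.6% in H460, from 50.4% to 31.1% in H1703, from 52.4% to 34.6% for the mean and from 48.0% to 23.9% for the class contrast.

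The count of higher genes in H460 was 6 with quantile normalisation and with the H460 libraries alone. That in H1703 was 2 with median centring and 3 with quantile normalisation, without trend and robust settings, or with the H1703 libraries alone. The count of lower genes in HCC827 was 0 with quantile normalisation or without trend and robust settings, and 1 with scaling to nuclear reads or voom. In H441 it was 1 without trend and robust settings and 0 with its own libraries alone. Median centring gave 11 lower for the mean and 2 for the class contrast. Leaving out 1 library gave 6 to 12 higher in H460, 3 to 5 higher and 6 to 11 lower in H1703, 0 to 4 lower in HCC827, 0 to 5 lower in H441 and 1 to 2 lower for the class contrast. Without the rRNAs, the log2 ratio of the mitochondrial share (combination over vehicle) was 0.78, -0.016, -0.13 and -0.18 in H460, H1703, HCC827 and H441, against 0.25, 0.34, -0.29 and 0.04 with them. The log2 ratio of light-strand over heavy-strand tRNA (combination over vehicle) was 0.22 to 0.53 in H460 and 0.86 to 1.303 in H1703 when 1 library was left out.

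Same-numbered libraries did not deviate together over the genes tested (r = 0.03, 0.01, 0.03 and 0.02 by line). Such an r cannot show a shift shared by few genes, so whether the numbers pair libraries is not known. A replicate block left 10 genes higher in H460 and ended the call of MT-TT in H1703 (adjusted p = 0.0506), while MT-TS1 passed in H1703 (0.94, adjusted p = 0.0146) and in the class contrast (adjusted p = 0.00618). Depth limits the tRNAs and MT-RNR1 most, since several tRNA genes had 0 reads in some libraries.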
